A study of Mus musculus with 6 samples.

Results

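The genes described here encode the mitochondrial respiratory chain in the hind limb of Swiss white mouse embryos while mesenchyme condenses and turns into cartilage. Members were all spots on the array whose only gene symbol starts with Ndufa, Ndufb, Ndufc, Ndufs, Ndufv, Uqcr, Cox4, Cox5, Cox6, Cox7, Cox8 or Atp5, or is Sdha, Sdhb, Sdhc or Sdhd. This gave 126 spots for 90 genes, of 33653 spots for 19087 genes with 1 symbol. The members were 36 genes of complex I (54 spots), 4 of complex II (6 spots), 8 of complex III (11 spots), 18 of complex IV (19 spots) and 17 of the ATP synthase (27 spots). The remaining 7 genes (9 spots) were Ndufaf1 to Ndufaf7, which share the first letters of the symbol but encode assembly factors of complex I and no subunits, so they are given separately.

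Tissue of the future tibia and fibula was microdissected from 231 sections, and 1 RNA pool was made for each of 3 time points. Pre-condensed mesenchyme at 11.5 days post coitum (dpc) came from 4 hind limbs. The mesenchymal condensation, taken at 12.5 dpc, came from 3, and the cartilage anlagen, taken at 13.5 dpc, again came from 4. No embryo was mutant or treated, and all pools went through 2 rounds of linear amplification. Every comparison of time points used 2 two-colour arrays with the dyes exchanged, which repeat the same pools. With 1 pool per time point no test was possible, no p-value is given, and the only error is technical. Values are log2 ratios of the later over the earlier time point after each array was centred on its median. A fitted value comes from least squares over all 6 arrays, and the direct arrays of a comparison are given beside it, first the array with the later time point in Cy5 and then the array with it in Cy3. A fitted value of -1 is a 2-fold lower signal at the later time point.

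The respiratory chain passes electrons from NADH and succinate to oxygen and pumps protons across the inner mitochondrial membrane, and the ATP synthase uses the return of the protons to make ATP. Complex I takes electrons from NADH and complex II takes them from succinate as part of the citric acid cycle. Both hand them to ubiquinone, from which complex III passes them to cytochrome c and complex IV to oxygen. Most subunits are encoded in the nucleus and belong to the members here, while those encoded by mitochondrial DNA lie outside the rule. Cartilage has few blood vessels, and mature chondrocytes are known to draw much of their energy from glycolysis.

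The values stayed small. No member differed 3-fold between any 2 time points in the fit, whereas 1.54% of all 19077 genes with fitted values did so for 12.5 over 11.5 dpc, 2.13% for 13.5 over 12.5 dpc and 5.5% for 13.5 over 11.5 dpc. The median over the 90 members was -0.23 for 12.5 over 11.5 dpc, -0.00 for 13.5 over 12.5 dpc and -0.23 for 13.5 over 11.5 dpc. Over all genes it was -0.01, -0.04 and 0.07. The first of these member medians became 0.22 when the arrays were not centred, and that of all genes became 0.44. In a bulk sample, fewer cells of a type and less RNA per cell cannot be told apart.

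Members seldom carried weak signal by the only mark available. A spot is called dim here when its ratio is, on at least 2 arrays, that of whole numbers no larger than 12, and 5.56% of the member spots were dim against 33.3% of all spots. Genes without a dim spot had medians of -0.18, 0.07 and 0.00 for the 3 comparisons. The member median for 12.5 over 11.5 dpc was thus near that of genes without dim spots, and that for 13.5 over 11.5 dpc lay below it.

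The same genes read differently with the dyes exchanged. For 13.5 over 11.5 dpc the median over the members was 0.27 on the array with 13.5 dpc in Cy5 and -0.91 on the array with it in Cy3. Of the 90 members, 52 lay above 0 on the former and below 0 on the latter, which is 57.8% against 16% of all genes. For 12.5 over 11.5 dpc 43 members had this pattern (47.8% against 14.7%), and for 13.5 over 12.5 dpc 39 had it (43.3% against 18.8%). Without the array of 13.5 over 11.5 dpc that has 13.5 dpc in Cy3, the member median of this comparison was 0.09 in place of -0.23.

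Agreement of both dye orientations was therefore counted as well. For 13.5 over 11.5 dpc 27 members lay below 0 on both direct arrays (30% against 36.1% of all genes) and 9 above 0 on both (10% against 34.9%). In the step from 11.5 to 12.5 dpc 38 lay below 0 on both (42.2% against 37.3%) and 3 above (3.33% against 34.4%), where genes without a dim spot had 48.9% and 22.9%. In the step from 12.5 to 13.5 dpc 19 lay below (21.1% against 30.2%) and 23 above (25.6% against 32.8%). Members above 0 on both arrays were thus fewer than the background in each comparison, and members below 0 on both were near or under it. Members that changed sign with the dyes enter neither count, so their larger share by itself lowers both.

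**Figure D1:**
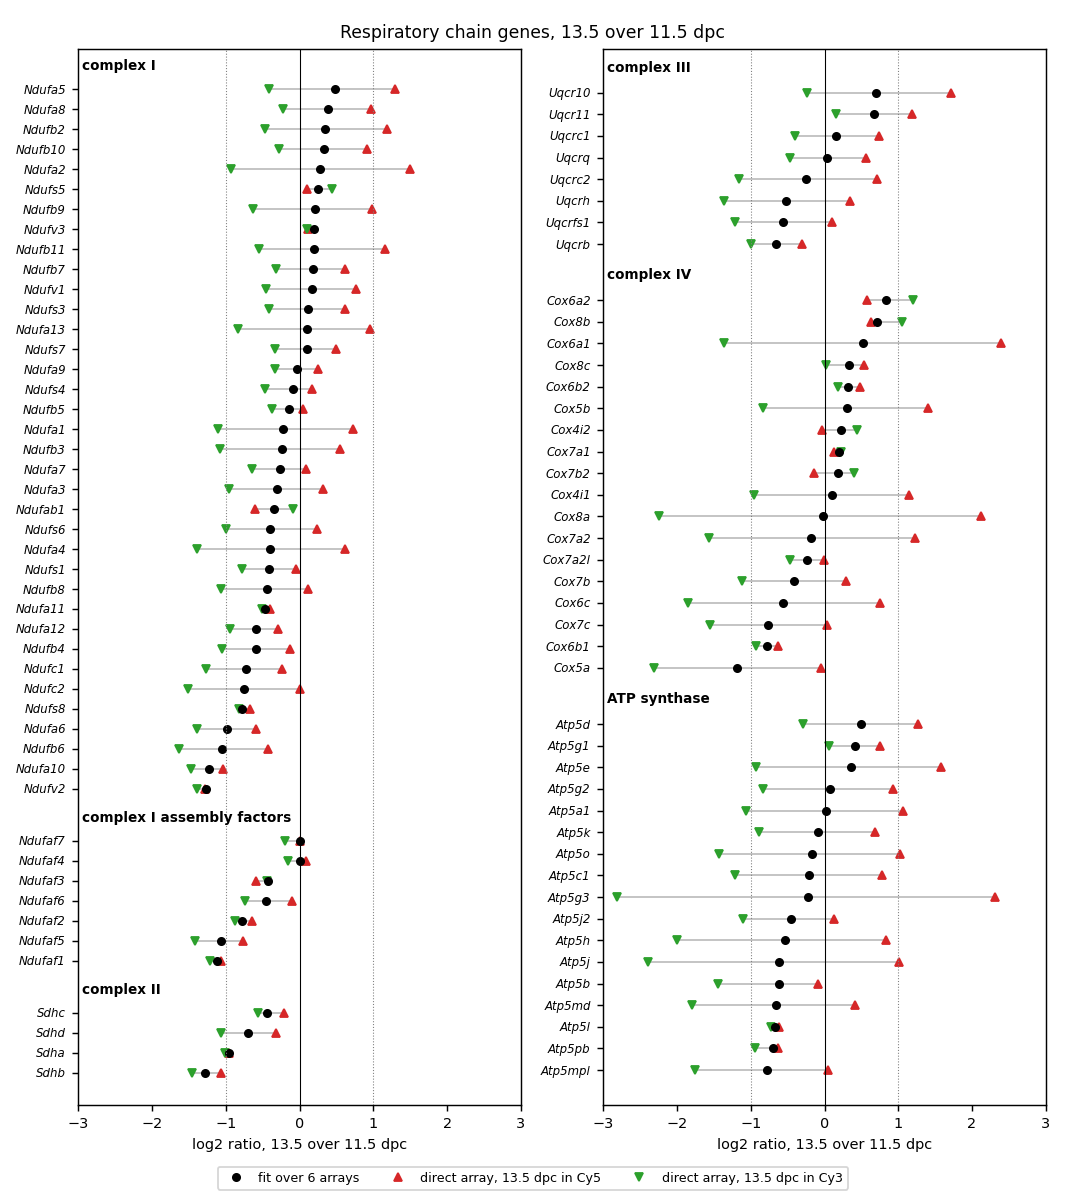
Log2 ratio of 13.5 over 11.5 dpc for each of the 90 genes, by complex and sorted by the fitted value (black points). Triangles give the 2 direct arrays and dotted lines a 2-fold difference. The triangles lie close together for complex II and the assembly factors and far apart for most of the ATP synthase and the widely used complex IV subunits.

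Complex II was lower after 11.5 dpc in all 4 genes and both dye orientations, as were 37.3% (12.5 dpc) and 36.1% (13.5 dpc) of all genes. Genes without a dim spot had 48.9% and 40.6%. The median of complex II was -0.69 for 12.5 over 11.5 dpc and -0.83 for 13.5 over 11.5 dpc. These medians and the -0.16 for 13.5 over 12.5 dpc kept their sign in all 18 alternative settings tried. Their size depended on the centring, without which they were -0.24, -0.66 and -0.44. All 4 fitted values of both comparisons with 11.5 dpc exceeded in size the distance of a direct array from the mean of its pair. So did 13344 of all 19077 genes for 12.5 over 11.5 dpc and 13115 for 13.5 over 11.5 dpc. A dye difference that recurs across the arrays adds to this distance, so it does not measure the error of the fit alone.

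Sdhb, the iron-sulfur subunit that carries electrons towards ubiquinone, had the lowest fitted value of all members for 13.5 over 11.5 dpc, -1.28 or 2.43-fold lower. Its direct arrays read -1.07 and -1.46 in this comparison. They read -0.89 and -0.55 for 12.5 over 11.5 dpc and -0.70 and -0.47 for 13.5 over 12.5 dpc. Sdhb was thus lower at the later time point on each of the 6 arrays. Below 0 on all 6 arrays were 12 of the 90 members (13.3%), against 11.5% of the 18425 genes with a value on each.

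Sdha, the flavoprotein that binds succinate, had a fitted -0.75 for 12.5 over 11.5 dpc with direct values of -0.93 and -0.51. For 13.5 over 11.5 dpc the fit gave -0.95 and the arrays -0.96 and -1.01. The direct arrays of 13.5 over 12.5 dpc disagreed, at -0.49 and 0.16. Its 3 spots all lay below 0 for 13.5 over 11.5 dpc but differed in size, with -1.69, -0.84 and -0.32.

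Sdhc and Sdhd anchor the enzyme in the membrane. Sdhc read -0.72 and -0.70 on the direct arrays of 12.5 over 11.5 dpc and -0.21 and -0.56 on those of 13.5 over 11.5 dpc, with fitted values of -0.66 and -0.44. From 12.5 to 13.5 dpc its arrays disagreed, at -0.05 and 0.40. Sdhd read -0.44 and -0.73 for 12.5 over 11.5 dpc and -0.32 and -1.07 for 13.5 over 11.5 dpc, with fitted values of -0.58 and -0.70, and was below 0 on all 6 arrays. How the difference divides between the steps depends on the centring: the fitted steps of Sdhb were -0.71 and -0.57 with it and -0.26 and -0.85 without it.

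Promoter sequence is shown for the complex II genes because they were lower together. It runs from 250 bases before to 30 after the transcription start in RefSeq on GRCm38.p6, 5′ to 3′ on the strand of the gene, and Sdhc is named only. Capitals mark matches on either strand to 5 short motifs: TGCGCA (NRF1), CCGGAAG (GABP and other ETS factors), AAGATGGC (YY1), AAGGTCA (ERR receptors) and CCAAT (NF-Y). No spelling contains another, and TGCGCA reads the same on both strands.
Sdha, chr13:74350211-74350490, minus strand: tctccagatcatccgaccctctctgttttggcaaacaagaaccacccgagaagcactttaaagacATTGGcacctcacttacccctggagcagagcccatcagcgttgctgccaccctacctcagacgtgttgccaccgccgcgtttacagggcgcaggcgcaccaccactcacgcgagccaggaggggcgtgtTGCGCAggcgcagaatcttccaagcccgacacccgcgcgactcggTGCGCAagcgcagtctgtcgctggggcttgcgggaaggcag
Sdhb, chr4:140961021-140961300, plus strand: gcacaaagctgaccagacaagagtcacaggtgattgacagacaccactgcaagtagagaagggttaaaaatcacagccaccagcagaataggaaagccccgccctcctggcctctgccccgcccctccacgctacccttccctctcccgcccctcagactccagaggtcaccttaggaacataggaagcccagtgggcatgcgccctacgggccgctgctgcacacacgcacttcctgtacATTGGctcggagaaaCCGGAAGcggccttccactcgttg
Sdhd, chr9:50603820-50604099, minus strand: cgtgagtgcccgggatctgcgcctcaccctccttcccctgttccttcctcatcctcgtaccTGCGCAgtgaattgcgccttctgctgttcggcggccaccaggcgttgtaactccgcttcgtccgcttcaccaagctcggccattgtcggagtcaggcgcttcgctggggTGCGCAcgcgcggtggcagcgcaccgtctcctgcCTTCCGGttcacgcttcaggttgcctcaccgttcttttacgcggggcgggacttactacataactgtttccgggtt

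Sdha and Sdhd each held TGCGCA at 2 places, Sdhb and Sdhd held CCGGAAG on one strand or the other, and Sdha and Sdhb held CCAAT on the opposite strand. Over the 75 members with a promoter sequence, 24% held TGCGCA against 8.40% of the windows of all 27025 genes, and 24% held CCGGAAG against 9.48%. AAGATGGC was in 5.33% against 2.66%, AAGGTCA in 8% against 5.10% and CCAAT in 44% against 39.7%. Ndufv2 and Ndufa10, which had the lowest values of complex I, held none of the 5 motifs in this window. A match describes the letters only.

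**Figure D2:**
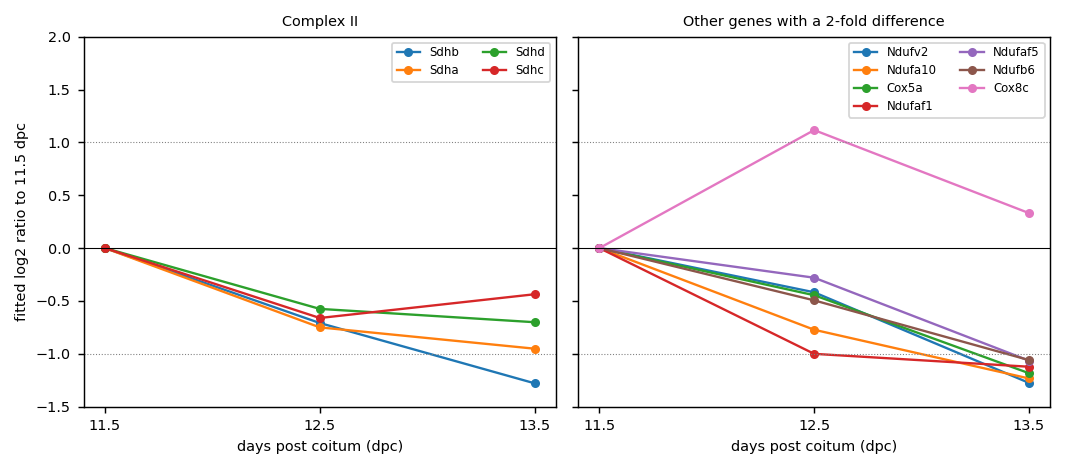
Fitted log2 ratio to 11.5 dpc at 12.5 and 13.5 dpc for the 4 genes of complex II (left) and the 7 other genes that reached a 2-fold difference between any time points (right). Dotted lines mark 2-fold. Sdhb ends at -1.28, and Cox8c alone lies above 0, at 1.12 for 12.5 dpc.

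A 2-fold difference was rare among the members. Between 11.5 and 13.5 dpc 7 of 90 (7.78%) were at least 2-fold lower, against 8.5% of all genes, and 0 were 2-fold higher, against 7.43%. Between 11.5 and 12.5 dpc 1 was lower, Ndufaf1 (2.56% of all genes), and 1 higher, Cox8c (6.23%), and for 13.5 over 12.5 dpc none was lower (3.7%) or higher (4.79%). The 7 lower genes were Sdhb, Ndufv2, Ndufa10, Cox5a, Ndufaf1, Ndufaf5 and Ndufb6. Without the 13.5 over 11.5 dpc array with 13.5 dpc in Cy3 their number was 4 (Ndufv2, Sdhb, Ndufa10 and Ndufaf1), and without its partner it was 17.

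In complex I the genes spread from -1.28 to 0.48 for 13.5 over 11.5 dpc, and 3 of 36 were 2-fold lower, a share near the background of all genes. The median over the 36 genes was -0.22, 0.05 and -0.23 for 12.5 over 11.5, 13.5 over 12.5 and 13.5 over 11.5 dpc. The last of these had the other sign in 2 of 18 alternative settings, and without centring the first became 0.23. Between 11.5 and 13.5 dpc 11 genes lay below 0 on both direct arrays (30.6% against 36.1% of all genes) and 2 above (5.56% against 34.9%). Above 0 only with 13.5 dpc in Cy5 lay 23, where 16% of all genes did.

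Ndufv2, an iron-sulfur protein of the arm that oxidises NADH, had a fitted -1.28 for 13.5 over 11.5 dpc (2.42-fold lower) with direct values of -1.28 and -1.40. It read -0.35 and -0.36 for 12.5 over 11.5 dpc and -0.86 and -0.73 for 13.5 over 12.5 dpc. The mean of its 2 spots was thus below 0 on all 6 arrays with little effect of the dyes. The 2 spots gave -1.84 and -0.71 for 13.5 over 11.5 dpc, and the latter read 0.16 and -0.27 for 12.5 over 11.5 dpc. Ndufa10, an accessory subunit related to nucleoside kinases, read -1.04 and -1.48 in the same comparison with a fit of -1.23, and -0.92 and -0.58 for 12.5 over 11.5 dpc.

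Ndufb6 and Ndufa6, accessory subunits of the membrane arm and the matrix arm, followed. Ndufb6 had a fitted -1.06 with direct values of -0.43 and -1.64. Ndufa6 had -0.99 with -0.59 and -1.40. Both were below 0 on all 6 arrays, but their direct values were about as far apart as the fit was from 0.

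The core subunits encoded in the nucleus differed in direction at the later step. As a group, though not each of them, they hold the flavin and the iron-sulfur clusters, and they are shared with bacteria. Of the 6 measured, all were below 0 for 12.5 over 11.5 dpc in the fit, with a median of -0.34 (0.11 without centring). On both direct arrays 5 were so (83.3% against 37.3% of all genes and 48.9% of genes without a dim spot). From 12.5 to 13.5 dpc 4 were above 0 on both arrays (66.7% against 32.8%) and 2 below (33.3% against 30.2%). Ndufs3 read -0.54 and -0.57 in the earlier step and 0.64 and 0.71 in the later one. Ndufs1, the largest subunit, read -0.49 and -0.66 and then 0.10 and 0.23. Ndufs7 read -0.12 and -0.29 and then 0.27 and 0.39, and Ndufv1, which binds NADH and flavin, read -0.10 and -0.18 and then 0.54 and 0.13. These 4 genes were thus lowest at 12.5 dpc relative to the median of all spots, and without centring only Ndufs3 was (-0.11 and 0.39 in the fit). Ndufs8 and Ndufv2 had fitted values of -0.53 and -0.86 in the later step.

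At the upper end of complex I, Ndufa5 had a fitted 0.48 for 13.5 over 11.5 dpc, but its direct arrays read 1.29 and -0.42. The mean over spots was above 0 on both arrays only for Ndufs5 (0.11 and 0.44) and Ndufv3 (0.12 and 0.11), each with 1 dim spot. Neither spot of Ndufs5 was above 0 on both: 1 read 1.09 and -0.85, and the dim one -0.88 and 1.7. A spot of Ndufv3 that was not dim read -0.28 and -0.26. Ndufa4, listed here by its symbol although it is now placed in complex IV, had -0.40 with 0.61 and -1.39.

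Of the 7 assembly factors of complex I, 6 were below 0 on both direct arrays for 12.5 over 11.5 dpc and 5 for 13.5 over 11.5 dpc. These genes thus had shares of 85.7% and 71.4%, against 37.3% and 36.1% of all genes and 48.9% and 40.6% without a dim spot. Their medians were -0.32, -0.01 and -0.46 for 12.5 over 11.5, 13.5 over 12.5 and 13.5 over 11.5 dpc, and the last kept its sign in all 18 alternative settings, while the first became 0.13 without centring. Ndufaf1, which helps build the membrane arm, had the lowest value of all members for 12.5 over 11.5 dpc, -1.0 with -1.07 and -0.90, and had -1.12 for 13.5 over 11.5 dpc (-1.07 and -1.21). Ndufaf5, which hydroxylates a core subunit during assembly, was lower mainly in the later step, with -0.28 for 12.5 over 11.5 dpc and -0.78 for 13.5 over 12.5 dpc (-0.89 and -0.63). Ndufaf2 read -0.64 and -0.87 for 13.5 over 11.5 dpc. Ndufaf4 and Ndufaf7 had fitted values of 0.00 and 0.01 there.

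Complex III showed no common direction between 11.5 and 13.5 dpc. Its medians were -0.27 (0.17 without centring), 0.19 and -0.11 for 12.5 over 11.5, 13.5 over 12.5 and 13.5 over 11.5 dpc. In the last comparison 6 of its 8 genes changed sign with the dyes, against 5388 of all 18613 genes with both arrays. Uqcrb, the subunit near the ubiquinone site, was the lowest, with -0.66 for 13.5 over 11.5 dpc, direct values of -0.30 and -1.0, and values below 0 on all 6 arrays. Uqcr10, a small membrane subunit, had the highest fitted value, 0.69, but its arrays read 1.71 and -0.23. Uqcr11, another small subunit, was the only one above 0 on both arrays, with 1.19 and 0.16, and it read 0.81 and 0.62 for 13.5 over 12.5 dpc. Uqcrfs1, the Rieske iron-sulfur protein, read 0.10 and -1.22.

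**Figure D3:**
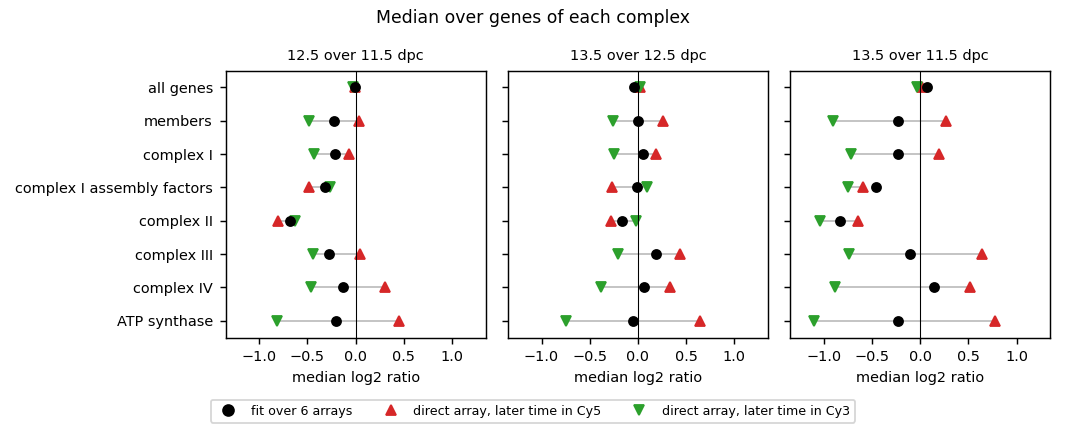
Median log2 ratio over the genes of each complex, over all 90 members and over all 19077 genes, in the 3 comparisons. Black points are the fit and triangles the direct arrays. For the ATP synthase in 13.5 over 11.5 dpc the arrays give 0.78 and -1.10, while for complex II they give -0.64 and -1.04.

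In the ATP synthase the dye orientation outweighed the time points. The median over the 17 genes was -0.23 for 13.5 over 11.5 dpc, but 0.78 on the array with 13.5 dpc in Cy5 and -1.10 on its partner. In this comparison 13 genes lay above 0 on the former and below 0 on the latter, where 16% of all genes did. Of the 17 genes, 3 had a fitted value larger in size than the distance of a direct array from its pair mean. Over all 19077 genes 13115 did. Atp5g3, one of 3 genes for the proton-carrying c subunit, read 2.32 and -2.81 with a fit of -0.23, the widest gap among the members.

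The F1 part makes the ATP. For 13.5 over 11.5 dpc none of its genes had a fit larger in size than the distance of a direct array from its pair mean. This distance holds the dye difference as well. Atp5a1, the alpha subunit, had 0.02 with 1.06 and -1.07. Atp5b, the beta subunit, had -0.62 with -0.09 and -1.45. Atp5c1, the gamma subunit that turns inside the head, had -0.22 with 0.78 and -1.21. Atp5d and Atp5e, the delta and epsilon subunits, had 0.49 (1.27 and -0.29) and 0.35 (1.58 and -0.93). Atp5d had the highest fitted value of the ATP synthase here, and no F1 gene lay above 0 on both arrays.

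Genes of the membrane part and the stalk differed in how far the dyes agreed. Atp5g1, another c subunit gene, read -0.48 and -0.25 for 12.5 over 11.5 dpc and 0.64 and 0.96 for 13.5 over 12.5 dpc. Atp5l, the g subunit, read -0.61 and -0.72 for 13.5 over 11.5 dpc. Atp5mpl, a small membrane subunit, had the lowest fitted value of the complex, -0.78, from direct values of 0.05 and -1.75.

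Atp5pb, the b subunit of the stalk, had -0.70 with -0.63 and -0.95, but its 4 spots disagreed, with -2.21, -1.19, -0.29 and 0.88. Of the 24 members with several spots, 10 had spots of opposite sign for 13.5 over 11.5 dpc. The median distance between a gene's lowest and highest spot was 0.43. Neither was worked out over all genes with several spots, so these values do not set the members apart. Ndufs4, an accessory subunit of complex I, had spots at 0.88 and -1.06.

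Complex IV divided into widely used subunits and isoforms restricted to some tissues. The median over its 18 genes for 13.5 over 11.5 dpc was 0.14 (with the other sign in 5 of 18 alternative settings), and it was -0.24 over the 11 genes left without the 7 restricted isoforms. Both medians hide a wide gap between dyes, which was 0.76 against -1.36 for those 11 genes.

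Among the widely used subunits, Cox5a had the lowest fitted value, -1.18 for 13.5 over 11.5 dpc, but its direct arrays read -0.05 and -2.32, and a fit of the arrays with the later time point in Cy5 alone gave 0.14. Cox6b1, which faces the intermembrane space, was lower on both arrays, with -0.63 and -0.93 and a fit of -0.78. Cox7a2l, which is needed to join complexes III and IV, read -0.94 and -0.42 for 12.5 over 11.5 dpc and 0.25 and 0.62 for 13.5 over 12.5 dpc.

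All 7 restricted isoforms measured lay above 0 for 13.5 over 11.5 dpc in the fit, as did 10410 of all 19077 genes. The median of the 7 was 0.32, and 5 of them lay above 0 on both direct arrays (71.4% against 34.9% of all genes). All 7 were also above 0 without centring, and none reached 2-fold in this comparison. The median of 7 widely used partners, Ndufa4 among them, was -0.18, with 1.14 and -1.36 on the direct arrays. Cox6a2, the form of heart and skeletal muscle, had 0.83, the highest fitted value of all members, with direct values of 0.57 and 1.20. Its fitted steps were -0.00 and 0.83, and 0.45 and 0.55 without centring. Its widely used partner Cox6a1 had 0.52 with 2.39 and -1.36. Cox8b, also a muscle form in mice, had 0.71 with 0.63 and 1.05, against -0.02 with 2.13 and -2.25 for Cox8a.

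The other restricted isoforms lay closer to 0. Cox6b2, known from testis, had 0.32 with 0.49 and 0.18, against -0.78 for Cox6b1. Cox4i2, known from lung, had 0.22 with -0.04 and 0.44, against 0.11 for Cox4i1. Cox7a1, a muscle form, had 0.20 with 0.12 and 0.23, against -0.18 for Cox7a2, and read -0.72 and -0.24 for 12.5 over 11.5 dpc. Cox7b2 had 0.18 with -0.14 and 0.40, against -0.41 for Cox7b. Cox8c, known from testis, was the only member 2-fold higher in any comparison, with 1.12 for 12.5 over 11.5 dpc (0.89 and 1.45) and 0.33 for 13.5 over 11.5 dpc. The former value was 0.95 without the array of 12.5 over 11.5 dpc that has 12.5 dpc in Cy3. The spots of Cox7a1, Cox7b2 and Cox8c were dim. For 13.5 over 11.5 dpc the median of all dim spots was -0.10 with 13.5 dpc in Cy5 and 0.46 with it in Cy3.

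**Figure D4:**
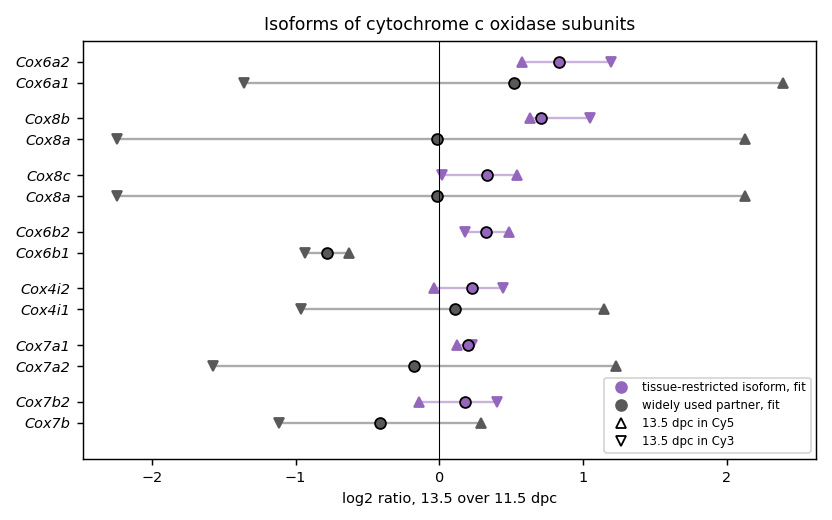
Log2 ratio of 13.5 over 11.5 dpc for the 7 restricted isoforms of complex IV subunits (purple) and their widely used partners (grey). Circles are the fit and triangles the direct arrays. The direct arrays of Cox6a2 (0.57 and 1.20) and Cox8b (0.63 and 1.05) both lie above 0, while those of Cox6a1 and Cox8a lie on both sides.

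Muscle markers were higher at 13.5 dpc as well. All 7 skeletal muscle markers were above 0 for 13.5 over 11.5 dpc, from 0.26 (Ckm) to 3.03 (Myh3), with a median of 1.68. On both arrays 6 were so (85.7% against 34.9% of all genes). Between 11.5 and 12.5 dpc their median was 0.83, from -0.01 (Ckm) to 1.66 (Myh3). The muscle isoforms Cox8b, Cox6a2 and Cox7a1 had 0.39, -0.00 and -0.50 there, the last from a dim spot. The 3 markers of heart-type or slow muscle lay between 0.38 and 1.26. The paper reports Myod1, which is not in these lists, close to background with almost no fold difference. From this it proposes that myogenic precursors did not contaminate the tissue to a significant degree. All 6 cartilage markers were at least 3-fold higher, with a median of 4.61. The 3 erythroid markers measured were lower, from -0.97 to -5.02 (Hbb-bh1). Endothelial, ectodermal and pericyte lists had medians of -0.10, -0.00 and 0.24, and the macrophage and Schwann lists had 1 marker each. The part of any of these cells in the values above was not tested.

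Genes that serve the chain from outside the rule mostly lay below the median of all spots for 12.5 over 11.5 dpc. Without centring, the list medians in this comparison were 0.03 for electron carriers and 0.21 for assembly factors. They were -0.07 for the citric acid cycle and 0.00 for regulators. The median of all genes was then 0.44, so each list still lay below it. Against 0, the direction of every list but the citric acid cycle (10 of 16 genes below 0) rested on the centring. Of 13 genes for electron carriers and cytochrome c1, 10 lay below 0 on both direct arrays in this comparison, and none was 2-fold different. The share of 76.9% stood against 37.3% of all genes and 48.9% of genes without a dim spot. Cyc1, which is cytochrome c1 of complex III, read -0.69 and -0.96 there and 0.65 and 0.44 for 13.5 over 12.5 dpc. Cycs, the cytochrome c that complex III reduces, read -0.39 and -0.45 and then -0.09 and -0.22. Cyct, the testis form, had the lowest value of the list for 13.5 over 11.5 dpc, -0.98.

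Of 31 assembly factors outside the rule, 23 were below 0 on both arrays for 12.5 over 11.5 dpc and 16 for 13.5 over 11.5 dpc. The shares were 74.2% and 51.6%, against 37.3% and 36.1% of all genes and 48.9% and 40.6% without a dim spot. For 13.5 over 11.5 dpc Acad9 was 2-fold lower (-1.05 with -0.81 and -1.26) and Ecsit 2-fold higher (1.12 with 1.41 and 0.85). Both, with Ndufaf1, act in building the membrane arm of complex I, so that 3 partners in 1 step of assembly did not share a direction. Sdhaf1, which serves the iron-sulfur subunit of complex II, read -0.71 and -0.54 for 12.5 over 11.5 dpc.

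Among the 16 genes of the citric acid cycle and pyruvate oxidation, 14 were below 0 on both arrays for 12.5 over 11.5 dpc. The share of 87.5% stood against 37.3% of all genes and 48.9% of genes without a dim spot. The median of the 16 was -0.52, beside -0.69 for complex II, which is an enzyme of the same cycle. Between 11.5 and 13.5 dpc the median was -0.45 (-0.28 without centring) and Suclg2, a subunit of succinyl-CoA ligase, was 2-fold lower (-1.21 with -1.26 and -1.27). In this comparison 5 of the 16 lay above 0 with 13.5 dpc in Cy5 and below 0 with it in Cy3, against 16% of all genes, with the widest gap in Mdh2, the malate dehydrogenase, at 1.77 and -1.45.

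Of 20 regulators of respiratory genes and of mitochondrial DNA, 13 were below 0 on both arrays for 12.5 over 11.5 dpc and 12 for 13.5 over 11.5 dpc. The shares were 65% and 60%, against 37.3% and 36.1% of all genes and 48.9% and 40.6% without a dim spot. Nrf1, whose motif was searched above, had -0.66 for 13.5 over 11.5 dpc (-0.67 and -0.69, 1 of 3 spots dim), and Gabpa, the DNA-binding part of GABP, had -0.71 (-0.56 and -0.86). Tfam, which packs mitochondrial DNA, had -0.55 (-0.50 and -0.67), and Ssbp1, which binds its single strands, was 2-fold lower, with -1.20 (-1.02 and -1.36). Ppargc1b, a coactivator of mitochondrial genes, stood against them as the only one 2-fold higher, with 2.03 (1.53 and 2.90), and Ppargc1a, its relative, had -0.57 from 2 spots of which 1 was dim. Without centring the median of the regulators in this comparison was -0.31, against -0.48 with it.

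**Figure D5:**
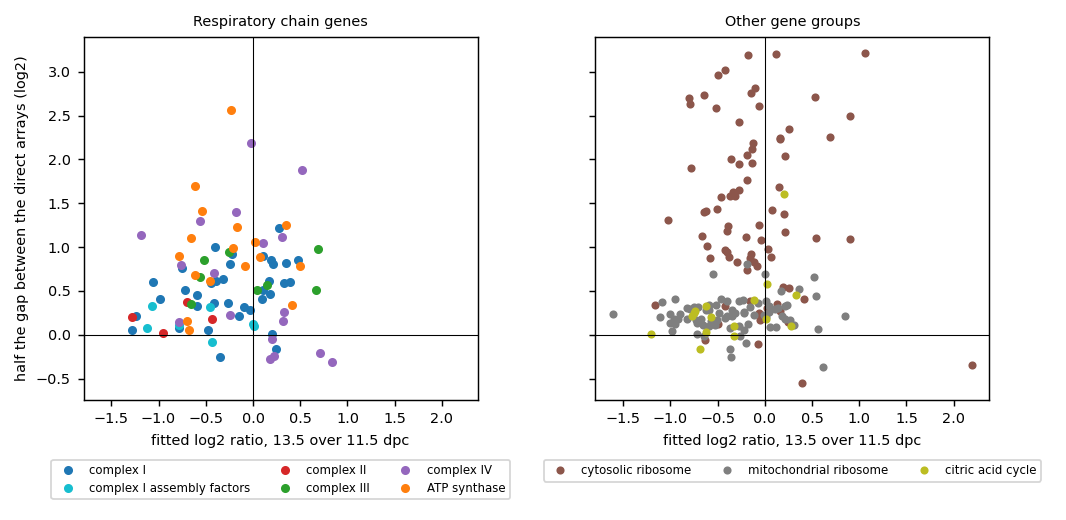
The gap between the direct arrays of 13.5 over 11.5 dpc (13.5 dpc in Cy5 minus 13.5 dpc in Cy3, divided by 2, log2) against the fitted log2 ratio, for the respiratory chain genes by complex (left) and for 3 other gene groups (right). Complex II and the assembly factors lie near 0 on the vertical axis with the citric acid cycle and the mitochondrial ribosome, and most of the ATP synthase lies above, as does the cytosolic ribosome.

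The gap between dyes differed among the complexes. In the comparison of 13.5 with 11.5 dpc, above 0 with 13.5 dpc in Cy5 and below 0 with it in Cy3 were 13 of 17 genes of the ATP synthase, 6 of 8 of complex III, 8 of 18 of complex IV, 23 of 36 of complex I, 2 of 7 assembly factors and 0 of 4 of complex II. Cytosolic ribosomal protein genes had it in 71 of 79 cases, mitochondrial ones in 23 of 78, and all genes in 16%. Across the 90 members the direct arrays of this comparison correlated with r of -0.04, and across all genes with 0.61, where genes share the arrays and are not independent replicates. The cause of this gap was not tested, and for the members that show it the direction over time was not settled by these arrays.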

How the data were processed

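The authors deposited 1 log2 ratio (Cy5 to Cy3) per spot and array, quantified with GenePix Pro from Agilent whole mouse genome arrays. The methods describe a print-tip loess step in limmaGUI, but the column medians ran from -0.355 to 0.725. The labels name TRIzol where the methods name an RNeasy kit. Absolute values above 16 (a cap) were treated as missing values. Arrays were turned to later minus earlier from the dyes in the labels and centred on their medians, and 2 differences per spot were fitted to the 6 arrays by least squares (Python 3.11.15, numpy 2.4.6). A gene is the mean of its spots. No signal intensity was used, so the number of arrays limits the precision. Folds of 3 (the study's) and 2 were counted.

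The replicate number of an array is its dye combination. Deviations of arrays with the same number from their pair means correlated over 18425 genes with r of 0.60, 0.44 and 0.34. Over the 90 members r was 0.93, 0.91 and 0.90. The number was also fitted as a block. The fit was tested on simulated data. Of 90 members, 75 had a RefSeq promoter. Ndufa4l2 was not analysed here.

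The members, lists and motifs were chosen with earlier results of these data known. Named in full were the highest and lowest member of each complex for 13.5 over 11.5 dpc, core and F1 subunits, members with a 2-fold difference, and restricted isoforms with their partners. Others named, and the list genes named, were chosen after their values were seen. Alternatives covered centring, scaling, direct or indirect arrays, each dye combination, each array left out and the choice of spots. Dropping the assembly factors and keeping only spots with a RefSeq transcript accession were chosen after seeing the data.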

Additional observations from a re-analysis of the deposited data

How the results depend on the processing

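Without centring, the median of all genes was 0.44 for 12.5 over 11.5 dpc, -0.32 for 13.5 over 12.5 dpc and 0.24 for 13.5 over 11.5 dpc, and the member medians were 0.22, -0.29 and -0.07. Fits of 1 dye combination alone gave member medians of 0.07, 0.25 and 0.25 with the later time point in Cy5 and -0.53, -0.26 and -0.80 with it in Cy3. Leaving out 1 array at a time, the medians ran from -0.40 to -0.08, from -0.15 to 0.18 and from -0.57 to 0.09. With the dye combination as a replicate block they were -0.23, -0.01 and -0.23, and the block moved no count of members past a fold. This was no check of the result. Each comparison has 1 array of each dye combination, so a block cannot change the fit of a spot with a value on every array. Among the member spots, only the dim spot of Ndufs5 lacked a value. The other alternatives kept the first and the last of the member medians below 0.

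The number of members at least 2-fold lower for 13.5 over 11.5 dpc was 7. It was 4 without centring, 38 with the dye combination that has the later time point in Cy3 alone, and between 4 and 17 with 1 array left out. At least 2-fold higher were 0, but 19 with the later time point in Cy5 alone and 4 without the array of this comparison that has 13.5 dpc in Cy3. With 1 dye combination alone 11 members were 3-fold lower (Cy3) or 6 were 3-fold higher (Cy5). For 12.5 over 11.5 dpc the 1 lower member, Ndufaf1, fell short of 2-fold under several settings (at the weakest -0.55, without centring), the 1 higher one, Cox8c, was lost without dim spots and without 1 array, and 9 were lower with the later time point in Cy3 alone. For 13.5 over 12.5 dpc, where none passed, 4 were lower without centring, 5 with the later time point in Cy3 alone, and 4 higher with it in Cy5 alone. Of the members named with a 2-fold difference, Cox5a alone changed sign, to 0.14 with the later time point in Cy5 alone. Sdhb ran from -1.39 to -1.11, Ndufv2 from -1.34 to -1.11 and Ndufa10 from -1.33 to -1.07 for 13.5 over 11.5 dpc. Ndufv2 had no value in the setting that kept only spots with a RefSeq transcript accession. What 1 pool per time point cannot show is the spread between embryos.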

Other observations

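Mitochondrial ribosomal protein genes, which make the machine that translates the subunits encoded by mitochondrial DNA, mostly lay below the median of all spots in both dye orientations. Of 78 such genes 60 lay below 0 on both direct arrays for 12.5 over 11.5 dpc and 48 for 13.5 over 11.5 dpc. The shares were 76.9% and 61.5%, against 37.3% and 36.1% of all genes and 48.9% and 40.6% without a dim spot. The medians of the 78 were -0.34 and -0.35. Without centring these medians were 0.10 and -0.18. At least 2-fold lower for 13.5 over 11.5 dpc were 5 of these genes, Mrps21, Mrpl22, Mrps33, Mrps17 and Mrps23, and none was 2-fold higher. Of all genes 8.5% were 2-fold lower and 7.43% higher. Mrps21 had the lowest value, -1.60, from a dim spot with direct arrays of -1.38 and -1.86, and was the only one past 3-fold.

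Of 26 genes for import into mitochondria, 17 lay below 0 on both direct arrays for 12.5 over 11.5 dpc and 11 for 13.5 over 11.5 dpc. The shares were 65.4% and 42.3%, against 37.3% and 36.1% of all genes and 48.9% and 40.6% without a dim spot. The medians of the 26 in these comparisons were -0.34 and -0.14, and 0.11 and 0.03 without centring. Timm9, a carrier chaperone of the intermembrane space, had -1.10 in the former (direct arrays -0.98 and -1.0) and 0.11 in the latter (0.03 and -0.02) over 3 spots of which 1 was dim, so that it was low at 12.5 dpc only. Timm29 and Timm21, parts of inner membrane translocases, were 2-fold lower for 13.5 over 11.5 dpc, with -1.07 and -1.01.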
